A study of Mus musculus with 9 samples.

Results

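Prrt4 and Pkhd1l1 encode 2 little-studied membrane proteins whose transcripts were read in the inner lining of the thoracic aorta of mice. They are 2 of 30142 genes that the array annotation names with a single symbol. Each was represented by 1 transcript cluster, the array's unit of measurement, and no other cluster carried either symbol. Both had been picked for being far lower in mice made to lose MEF2 factors, so their difference between genotypes is given as a description, with no test.

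ACDiEKO mice were homozygous for floxed Mef2a, Mef2c and Mef2d (f/f) and carried Cdh5-CreERT2, a recombinase driven by the endothelial Cdh5 promoter that tamoxifen switches on, so that all 3 genes could be deleted. Controls were Cre-negative littermates with the same floxed alleles and the same tamoxifen, and in this design the effects of the recombinase and of losing MEF2 cannot be told apart. All animals were female, were 10 weeks old when the 5 daily injections were given, and contributed a single aorta each, flushed through the lumen with lysis reagent to collect endothelial RNA. The harvest is placed 14 days after the first injection by the sample protocols and 7 days by the series text, and this was not settled. The 5 ng of RNA per aorta was hybridised to Clariom D arrays, 5 from ACDiEKO and 4 from control mice. Values are the authors' log2 values, and differences are ACDiEKO minus control in log2 units.

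MEF2A, MEF2C and MEF2D are transcription factors that bind AT-rich sites, and in endothelial cells they are known to drive Klf2 and Klf4, the Krüppel-like factors that are high under laminar blood flow. Prrt4 belongs by name to the proline-rich transmembrane proteins, and little is known of what it does. Pkhd1l1 encodes fibrocystin-L, a very large receptor-like protein with a long extracellular part, related to fibrocystin (Pkhd1), whose human gene is mutated in recessive polycystic kidney disease. In the mouse inner ear fibrocystin-L coats the stereocilia of hair cells and is needed for lasting hearing.

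The Prrt4 promoter is shown because the deleted factors and the Krüppel-like factors both act through short DNA sites. The RefSeq table of promoters (build GRCm38.p6) gave, for the 250 bases before the Prrt4 start, chr6:29179585-29179834 on the minus strand. It held no entry for Pkhd1l1, so the Pkhd1l1 promoter was not searched for motifs. Capitals mark the matches to CACCC, a core that Krüppel-like factors recognise, here read on the opposite strand as GGGTG. A stretch of the Klf2 promoter (chr8:72318924-72318973, plus strand) is set beside it, with its match to the MEF2 motif in capitals.
Prrt4: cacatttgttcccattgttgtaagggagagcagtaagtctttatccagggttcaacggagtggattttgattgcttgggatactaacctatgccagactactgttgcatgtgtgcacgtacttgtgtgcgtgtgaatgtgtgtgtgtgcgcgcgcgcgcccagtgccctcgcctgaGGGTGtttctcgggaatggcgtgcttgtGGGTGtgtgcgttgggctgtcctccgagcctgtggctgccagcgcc
Klf2: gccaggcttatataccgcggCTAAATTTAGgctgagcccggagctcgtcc

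Motifs were searched on both strands in windows of 250 bases before to 50 bases after each start. The Prrt4 window held 2 CACCC matches, 70 to 74 and 42 to 46 bases before the start, and 57.5% of all 32851 windows held at least 1. It held no match to the MEF2 motif, which 3.19% of windows held, and none to the SRF CArG motif, which 1.63% held. The Klf2 window held 1 MEF2 match, 109 to 118 bases before the start. No match means only that these letters are not in this window.

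Prrt4 measured 6.82, 6.73, 7.95, 6.82 and 8.42 in ACDiEKO replicates 1 to 5, against 11.73, 11.34, 12.57 and 12.09 in control replicates 1 to 4. Every ACDiEKO array lay below every control array, and ACDiEKO replicates 3 and 5 were the highest of their group. ACDiEKO replicates 1 and 2 were nearly identical over the whole array (robust SD of their difference over bright clusters 0.0707, while the other 15 same-genotype pairs had 0.268 to 0.401). They were averaged and counted as 1 sample from here on, which leaves 4 ACDiEKO and 4 control samples. On that basis Prrt4 averaged 7.49 ± 0.83 in ACDiEKO and 11.93 ± 0.53 in control (SD, n = 4 each), a log2 difference of -4.44. The lowest control sample lay 2.91 log2 units above the highest ACDiEKO sample, and no other of the 16403 tested genes that were lower in ACDiEKO had a wider gap. Tests were limited to genes in which at least 4 arrays exceeded 6.165, the median of the deposited table, and all ACDiEKO arrays of Prrt4 lay above that value, 3 of them by less than 1 unit. Values so near the dim end of the array may understate the difference.

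Pkhd1l1 measured 8.25, 8.22, 11.34, 9.69 and 9.89 in ACDiEKO replicates 1 to 5, against 12.87, 12.90, 14.45 and 13.93 in control replicates 1 to 4. The groups again did not overlap, but ACDiEKO replicate 3 stood well above the other ACDiEKO arrays. The means were 9.79 ± 1.27 in ACDiEKO and 13.54 ± 0.78 in control (SD, n = 4 each), a log2 difference of -3.75. The gap between the groups was 1.53 log2 units, and 26 tested genes that were lower in ACDiEKO had a wider one. By size of difference, 4 tested genes were lower in ACDiEKO by more than Prrt4 and 7 by more than Pkhd1l1. Groups did not overlap, with ACDiEKO the lower, in 11.0% of tested genes, and both genes had been chosen on this contrast. In RNA of the whole luminal flush, fewer cells of a type and less RNA per cell cannot be told apart.

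**Figure D1:**
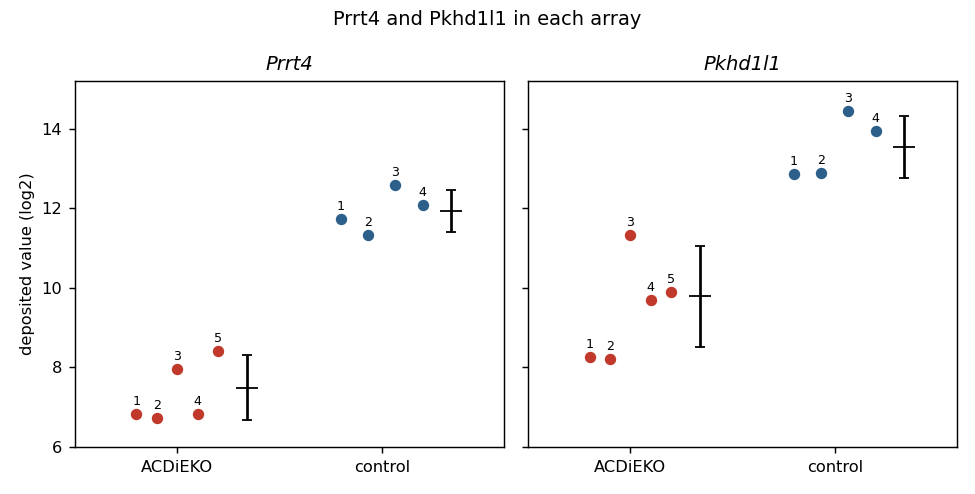
Deposited log2 value (vertical axis) of Prrt4 and Pkhd1l1 in each array, with ACDiEKO left of control. Numbers are replicate numbers, and the black marks are the group mean and SD over 4 samples, with ACDiEKO replicates 1 and 2 averaged. All ACDiEKO arrays of Prrt4 lie at or below 8.42 and all control arrays at or above 11.34, and for Pkhd1l1 the corresponding values are 11.34 and 12.87.

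Both genes varied more within a genotype than most genes did. Pkhd1l1 spanned 3.10 log2 units among ACDiEKO samples and 1.58 among control samples, and its SD exceeded that of 99.6% of tested genes in ACDiEKO and 98.5% in control. Prrt4 spanned 1.65 and 1.24 log2 units in ACDiEKO and control samples, with an SD above that of 98.6% and 95.1% of tested genes. The pooled ACDiEKO sample of replicates 1 and 2 was the lowest for both genes. The order of the other ACDiEKO samples differed between the genes, since replicate 3 was the highest for Pkhd1l1 and replicate 5 for Prrt4.

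Control replicates 3 and 4, whose titles carry animal numbers apart from the unbroken run of the other 7 animals, had the highest control values of both genes. Prrt4 averaged 12.33 in control replicates 3 and 4 and 11.53 in control replicates 1 and 2, and Pkhd1l1 averaged 14.19 and 12.88 in these pairs. Against control replicates 1 and 2 alone, whose numbers run on from those of the ACDiEKO animals, the log2 differences were -4.04 for Prrt4 and -3.10 for Pkhd1l1. Leaving out each array in turn gave differences of -4.75 to -4.22 for Prrt4 and -4.27 to -3.45 for Pkhd1l1.

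Endothelial markers were bright in both groups: VE-cadherin (Cdh5), the adhesion protein of endothelial junctions, averaged 15.83 ± 0.18 in ACDiEKO and 15.59 ± 0.21 in control (SD, n = 4 each). The mean of the 9 endothelial markers with a value was 13.29 to 13.70 in ACDiEKO samples and 13.17 to 13.49 in control samples. Among these 9, all tested, the sialomucin Emcn rose by 3.72 and the VEGF receptor Kdr by 0.96, the angiopoietin receptor Tek fell by 1.92 and Pecam1 fell by 0.37, and 5 did not pass, with a median difference of -0.18. Without Emcn, a choice made after seeing the data, the mean was 13.14 to 13.55 in ACDiEKO samples and 13.48 to 13.88 in control samples. The mean of 12 smooth muscle markers was 9.53 to 10.45 in ACDiEKO samples and 8.22 to 9.20 in control samples, without overlap. Of the 11 that were tested, 7 rose and none fell (limma with Benjamini-Hochberg adjustment at 0.05 over all tested genes, here and below), where 8.92% of all tested genes rose and 7.33% fell. Among them the actin Acta2 averaged 17.49 ± 0.49 in ACDiEKO and 14.30 ± 1.30 in control. Myh11, the smooth muscle myosin and the defining marker of mature smooth muscle, averaged 7.36 ± 0.39 in ACDiEKO and 7.40 ± 0.08 in control. It read an identical value (7.42) in control replicates 1 and 3 and ACDiEKO replicate 5. Whether its cluster can show a change was not tested. Desmin (Des) was too dim to be tested.

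The smooth muscle marker mean also tended to run opposite to both genes within each genotype, though not sample by sample. It was lowest in control replicates 3 and 4 (8.22 and 8.37), where both genes were highest, and it was highest in ACDiEKO replicate 4 and the pooled replicates 1 and 2 (10.45 and 10.36), where Prrt4 and, with replicate 5 close above, Pkhd1l1 were lowest. For Prrt4 some samples went otherwise. ACDiEKO replicate 3 had the lowest ACDiEKO marker mean (9.53), but replicate 5 had the highest ACDiEKO Prrt4 (8.42). Control replicate 1 had the highest control marker mean (9.20) but more Prrt4 (11.73) than control replicate 2 (11.34). With the smooth muscle marker mean as a covariate in the fit, the log2 difference was -2.69 for Prrt4 and -1.05 for Pkhd1l1. The mean did not overlap between the genotypes, so neither this fit nor those below with the covariate can separate it cleanly from genotype. Their values are not differences corrected for smooth muscle.

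The marker means of other cell types overlapped between the genotypes. The leukocyte marker mean was 6.91 to 8.85 in ACDiEKO samples and 6.55 to 7.10 in control samples, with the high value in ACDiEKO replicate 5. The mesothelial mean was 6.71 to 8.97 in ACDiEKO samples and 6.30 to 7.47 in control samples, and the brown fat and adipocyte mean was 7.65 to 10.53 in ACDiEKO samples and 8.98 to 11.65 in control samples. The adventitial fibroblast mean was 8.42 to 9.14 in ACDiEKO samples and 8.65 to 8.90 in control samples. Of its 7 markers, all tested, Serpinf1 rose by 0.77, Pi16 differed by -2.41 and 5 did not pass. Over all tested genes 8.92% rose and 7.33% fell. The lymphatic endothelial mean was 6.76 to 7.16 in ACDiEKO samples and 6.57 to 6.93 in control samples, and its defining factor Prox1 was too dim to be tested. Alas2, the only erythrocyte marker with a value, read 9.61 to 11.59 in ACDiEKO samples and 9.99 to 11.89 in control samples. The Schwann cell mean, over 2 markers that were too dim to be tested, was 5.28 to 5.36 in ACDiEKO samples and 5.24 to 5.30 in control samples. The part of these cells in the difference of either gene was not tested.

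**Figure D2:**
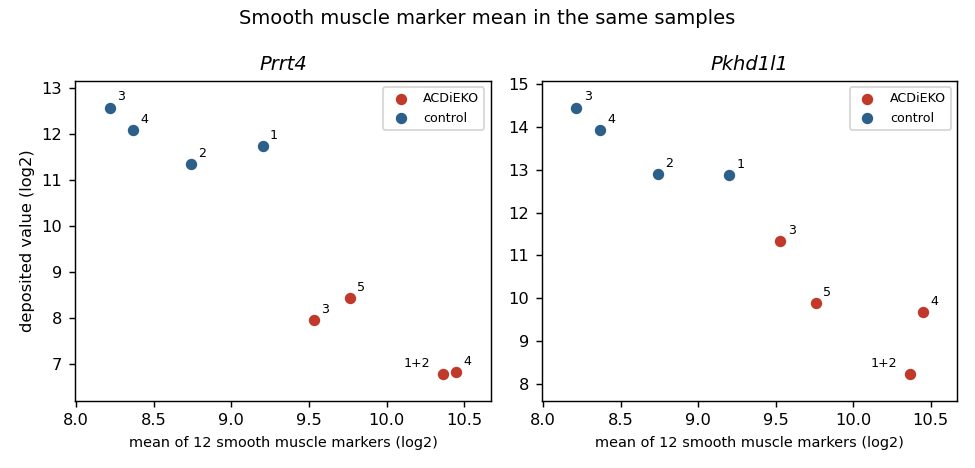
Deposited log2 value of Prrt4 and Pkhd1l1 (vertical axes) against the mean log2 value of 12 smooth muscle markers (horizontal axes) in the same 8 samples. Numbers are replicate numbers, and 1+2 is the averaged pair. The 4 ACDiEKO samples have the higher marker means (9.53 to 10.45) and the lower values of both genes, and control replicates 3 and 4 sit at the opposite corner.

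Genes with a similar course over the 8 samples were found from profiles, each gene's values minus its own mean. Likeness was the root mean square distance between profiles in log2 units. A small distance needs a fall of similar size, so the genes listed share the contrast that chose Prrt4 and Pkhd1l1. Klf4 (distance 0.52) and Klf2 (0.58) lay nearest to Prrt4, against a median distance of 2.29 over all tested genes. The profile nearest to Pkhd1l1 was that of Cldn5, the tight junction claudin of endothelium (0.47), against a median of 2.08.

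Klf4 measured 7.87, 9.86, 7.54 and 9.06 in the ACDiEKO samples (replicates 1 and 2 averaged, then 3, 4 and 5), against 12.61, 12.77, 12.75 and 12.54 in control replicates 1 to 4. Its ACDiEKO samples split as those of Prrt4 did, with replicates 3 and 5 above the others, while its controls were nearly level. Cldn5 measured 12.10, 13.76, 11.93 and 12.42 in the same ACDiEKO samples, against 15.40, 15.57, 16.97 and 16.65 in the controls. Its control replicates 3 and 4 were the highest, as for Pkhd1l1, and its ACDiEKO replicate 3 was the highest of its group. The log2 differences were -4.09 for Klf4 and -3.59 for Cldn5.

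The other genes near Prrt4 were Klk10, a secreted serine protease (0.64), Cldn5 (0.67), the kallikreins Klk1 (0.69) and Klk1b24 (0.77), the surface antigen gene Ly6c2 (0.69) and, seventh, Pkhd1l1 itself (0.73). Near Pkhd1l1, after Cldn5, came Ly6c2 (0.62) and Ly6c1 (0.65), Klf2 and Klf4 (0.70 each), Fam107a, an actin-binding stress response gene (0.71), the kallikrein Klk1b5 (0.72) and Prrt4 (0.73). Klf2, Klf4, Cldn5 and Ly6c2 were in both sets, 50% of each set of 8. Klk1 and the Klk1b genes, and Ly6c1 and Ly6c2, are near-identical copies, so their single values are uncertain. Of the 10 genes other than Prrt4 and Pkhd1l1 in these sets, the promoter windows of Klf2 and Klk10 held a MEF2 match, and 9 held CACCC. The Klf4 window held neither. Over all genes in the promoter table the shares were 3.70% and 59.8%. The 9 include the copies Klk1, Klk1b5, Klk1b24, Ly6c1 and Ly6c2, which may not count as separate promoters. The 10 genes share the contrast that chose Prrt4 and Pkhd1l1, and enrichment of either motif was not tested. The endothelial nitric oxide synthase Nos3 lay farther off than the genes in these sets, at 1.18 from Prrt4 and 1.05 from Pkhd1l1. Still, only 0.23% of tested genes were nearer to Prrt4 and 0.26% nearer to Pkhd1l1.

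Profiles nearest to the mirror image, high where these genes were low, were found in the same way. For Prrt4 they were Ulbp1, a ligand of the NKG2D receptor (distance to the sign-turned profile 0.55, difference 3.93), the DNA topoisomerase Top2a (0.55, 4.09), the growth factor Tgfb2 (0.66, 4.84) and the myosin light chain Myl9 (0.71, 3.68). For Pkhd1l1 they were the calponin Cnn2 (0.57, 3.15), Myl9 (0.62, 3.68), the transcription factor Glis3 (0.63, 3.30) and the growth factor Pdgfb (0.70, 3.05). Myl9, which is a smooth muscle marker in the list above, was in both sets. Mki67, the proliferation marker, was 13.74 ± 0.42 in ACDiEKO and 8.06 ± 0.28 in control, a larger change than either gene's. It was not among the mirror profiles listed for either gene.

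**Figure D3:**
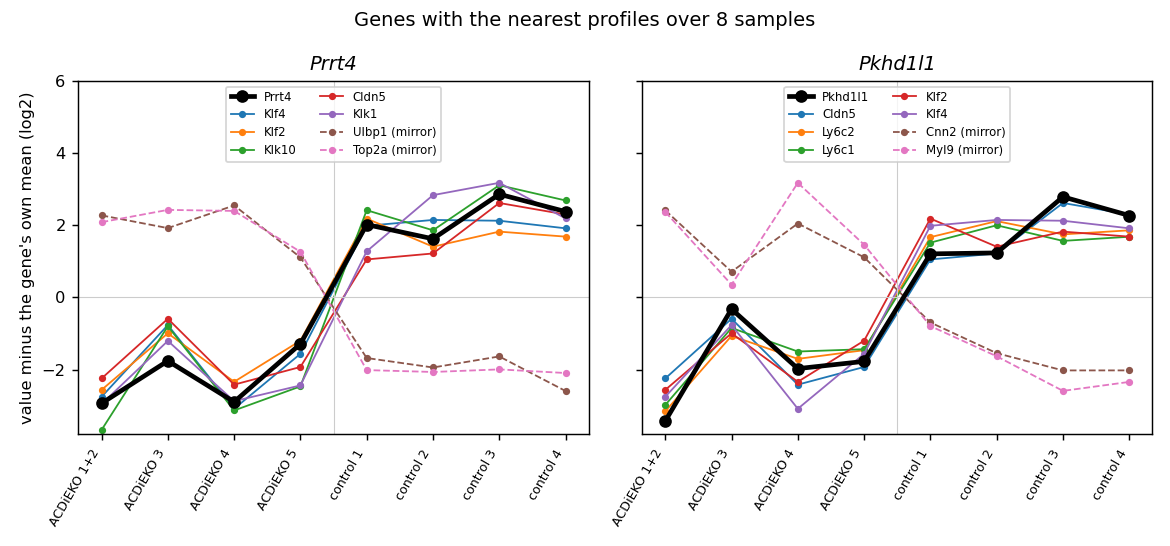
Each gene's log2 value minus its own mean over 8 samples (vertical axis), with the 4 ACDiEKO samples left of the 4 controls. Black lines are Prrt4 and Pkhd1l1, thin lines the 5 nearest genes other than these, and dashed lines 2 near mirror images. Pkhd1l1 and Cldn5 are higher in control replicates 3 and 4 than in 1 and 2, while Klf4 is nearly level over the controls.

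To look at likeness apart from the genotype difference, each sample was expressed as its deviation from its group mean. Over the 8 samples, which share libraries and cell mixtures between genes, the Pearson r of deviations between Prrt4 and Pkhd1l1 was 0.72, and 3.21% of tested genes had a higher r with Prrt4. For Prrt4 the r was 0.79 with Klf2, 0.70 with Klf4 and 0.70 with Nos3. For Pkhd1l1 it was 0.66 with Klf2, 0.67 with Klf4, 0.68 with Nos3 and 0.87 with Cldn5. The endothelial genes Cdh5 (0.19 with Prrt4, -0.20 with Pkhd1l1) and Vwf, von Willebrand factor (-0.03 and -0.13), had values near 0. Pecam1, the platelet and endothelial adhesion molecule, had 0.69 with Prrt4 and 0.44 with Pkhd1l1. With Prrt4, 41 tested genes had an r above 0.9 and 34 an r below -0.9. With Pkhd1l1 the numbers were 27 and 22. These values describe 8 samples and are listed with no test.

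The highest values with Prrt4 were those of the lectin receptor Clec4e, the non-coding RNA Cahm and the transcription regulator Thap11 (0.97 each). The calmodulin-like Calml4 and Ern1, a sensor of unfolded protein in the endoplasmic reticulum, followed (0.96 each). Ern1 measured 10.87, 11.53, 10.84 and 11.54 in the ACDiEKO samples (replicates 1 and 2 averaged, then 3, 4 and 5), against 12.57, 12.45, 12.82 and 12.72 in the controls. It fell by 1.45 (SE 0.19, limma adjusted p = 0.00261), and Calml4 fell by 1.46 (SE 0.19, adjusted p = 0.0025). Clec4e (-0.29), Cahm (-0.63) and Thap11 (-0.26) did not pass.

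The highest values with Pkhd1l1 were those of phospholipase D1 (Pld1, 0.99), Fn3krp, a kinase of glycated amines (0.97), the iron-sulfur assembly factor Ciao1, the Gla protein Prrg4 and Trip10, a membrane-curving adaptor (0.96 each). Pld1 measured 10.25, 11.01, 10.58 and 10.70 in the ACDiEKO samples, against 11.06, 11.02, 11.52 and 11.30 in the controls, a difference of -0.59 (SE 0.18) that did not pass (limma adjusted p = 0.0571). Trip10 fell by 0.58 (SE 0.11, adjusted p = 0.0104). Fn3krp (-0.35), Ciao1 (-0.02) and Prrg4 (-0.04) did not pass. Ciao1 read an identical value (9.45) in control replicates 1 and 2 and ACDiEKO replicates 4 and 5, so its r rests on few samples. Across the genes picked for the highest r with either gene, differences between genotypes ran from -0.02 to -1.46. A high r is what they were picked for, and a shared course was not tested.

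The relatives of both proteins were then read in the fit of all genes, in which 2666 of 16403 tested genes (16.3%) passed, 1463 (8.92%) higher and 1203 (7.33%) lower in ACDiEKO. With the arrays centred on their medians the split was 1867 higher and 977 lower. The count was 1680 without ACDiEKO replicate 4, 1127 without control replicates 3 and 4 together, and 0 with the smooth muscle marker mean as a covariate, where 1409 genes had an unadjusted p under 0.05 in limma. Of 35 relatives listed, 30 had a value and 10 were bright enough to be tested. Of these, 1 rose and 2 fell, with a median difference of 0.00, against -0.03 over all tested genes.

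Prrt1 and Prrt3, the only other proline-rich transmembrane genes with a value, were too dim to be tested. Prrt1 averaged 5.22 in ACDiEKO and 5.14 in control, and Prrt3 averaged 4.11 in ACDiEKO and 4.09 in control. Fibrocystin itself (Pkhd1), the closest relative of Pkhd1l1, was also too dim, at 4.99 in ACDiEKO and 5.01 in control.

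Cemip2, which shares the G8 domain with fibrocystin-L and is a cell-surface protein linked to hyaluronan turnover, was the only bright relative of that kind. It measured 11.41, 12.94, 10.88 and 12.35 in the ACDiEKO samples (replicates 1 and 2 averaged, then 3, 4 and 5), against 12.29, 12.88, 14.30 and 13.80 in control replicates 1 to 4. The groups overlapped, with control replicates 3 and 4 the highest of all samples. The log2 difference was -1.42 (SE 0.56) and did not pass (limma adjusted p = 0.12). It passed with the title numbers as a replicate block over all 9 arrays (-1.15, adjusted p = 0.0202), although the numbers do not pair the arrays. It was 1.39 (adjusted p = 0.171) with the smooth muscle marker mean as a covariate.

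Polycystin-1 (Pkd1), the only one of the 7 polycystin genes with a value that was tested, averaged 12.36 ± 0.26 in ACDiEKO and 12.32 ± 0.13 in control and did not pass (adjusted p = 0.873). The other 6 were too dim. Of 8 hair bundle surface and link genes with a value, which include the stereocilin gene Strc and the tip-link cadherins Cdh23 and Pcdh15, 7 were too dim to be tested. The eighth, Tmie, a subunit of the hair cell transduction channel, measured 6.71, 7.02, 6.96 and 6.69 in the ACDiEKO samples, against 7.81, 7.89, 7.43 and 7.19 in the controls. It fell by 0.74 (SE 0.17, limma adjusted p = 0.0218). The call ended without both near-identical arrays (adjusted p = 0.0615), without control replicate 1 (0.0537) and without ACDiEKO replicate 5 (0.051). It also ended with no filter (limma adjusted p = 0.0503), with the title numbers as a replicate block (0.066) and with the smooth muscle covariate (0.425). Tmie passed under 14 of 20 alternatives.

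Receptors that share the IPT/TIG domain with fibrocystin-L were better represented, with 7 of 11 tested. The hepatocyte growth factor receptor Met measured 7.53, 8.16, 7.11 and 7.22 in the ACDiEKO samples, against 8.31, 8.51, 9.71 and 9.07 in the controls. It fell by 1.40 (SE 0.34, adjusted p = 0.0285), and its highest samples were again control replicates 3 and 4. That call ended without control replicate 3 (adjusted p = 0.0511), control replicate 4 (0.0754), ACDiEKO replicate 4 (0.0833), ACDiEKO replicate 5 (0.0645) or both near-identical arrays (0.0667). It also ended without control replicates 3 and 4 together (limma adjusted p = 0.137) and with a term for them (0.119). With the smooth muscle marker mean as a covariate the difference was -0.02. Met passed under 11 of 20 alternatives. The semaphorin receptor Plxnb2 measured 8.68, 8.48, 8.73 and 8.68 in the ACDiEKO samples, against 8.25, 7.86, 8.02 and 7.71 in the controls. It rose by 0.68 (SE 0.12, adjusted p = 0.00907), a call that held without each single array and ended without control replicates 3 and 4 together (0.0645) and with the smooth muscle covariate (0.788). The plexins Plxna1 (0.49), Plxna2 (0.43), Plxna3 (-0.26), Plxna4 (-0.05) and Plxnd1 (0.37) did not pass.

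Neighbouring genes show whether a difference was spread along the chromosome. The 8 protein-coding genes on each side of Prrt4 on chromosome 6 and of Pkhd1l1 on chromosome 15 were taken in the order of the RefSeq table. Of these 32 genes, 31 had a value and 19 were tested, of which 1 rose and none fell, with a median difference of 0.08. Of the 19, 5 had an unadjusted p under 0.05 in limma, as did 5365 of all 16403 tested genes, of which 16.3% passed after adjustment.

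Next to Prrt4 lie Rbm28, a nucleolar RNA-binding protein gene, and Impdh1, which encodes an enzyme of guanine nucleotide synthesis. Rbm28 averaged 8.76 ± 0.0044 in ACDiEKO and 8.74 ± 0.19 in control, and Impdh1 averaged 7.74 ± 0.22 in ACDiEKO and 7.98 ± 0.31 in control (SD, n = 4 each). The averaged ACDiEKO replicates 1 and 2 and replicates 3 and 5 held an identical Rbm28 value (8.756), so its SD of 0.0044 says little about spread between animals. Neither Rbm28 nor Impdh1 passed (limma adjusted p = 0.93 and 0.379). Snd1, an RNA-binding nuclease gene 4 places away, measured 9.36, 9.03, 9.30 and 9.01 in the ACDiEKO samples, against 8.69, 8.86, 8.77 and 8.59 in the controls. It rose by 0.45 (SE 0.11, adjusted p = 0.025), opposite in sign to the Prrt4 difference. The call ended without control replicate 1 (0.0583), control replicate 3 (0.0524), control replicate 4 (0.067), ACDiEKO replicate 4 (0.0718) or both near-identical arrays (0.063). It also ended without control replicates 3 and 4 together (limma adjusted p = 0.141), with a term for them (0.108) and with the smooth muscle covariate (0.907). Snd1 passed under 13 of 21 alternatives. Calu, 5 places away on the other side, differed by 0.64 (SE 0.19) and did not pass (limma adjusted p = 0.0524). It passed under 5 of 21 alternatives.

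Next to Pkhd1l1 lie Eny2, a subunit of chromatin and mRNA export complexes, and Ebag9. Eny2 averaged 12.82 ± 0.05 in ACDiEKO and 12.60 ± 0.12 in control, and Ebag9 averaged 8.69 ± 0.10 in ACDiEKO and 8.58 ± 0.18 in control. Neither passed (adjusted p = 0.0915 and 0.504). The translation initiation genes Eif3e (0.01) and Eif3h (0.12) and the cohesin gene Rad21 (0.16), which lie in the same stretch, did not pass either. Angpt1, the ligand of the endothelial receptor TIE2 and the eighth gene on that side, averaged 5.98 ± 0.21 in ACDiEKO and 6.73 ± 0.45 in control, a difference of -0.75 (SE 0.22) that did not pass (adjusted p = 0.0544). It passed without control replicate 4 (-0.91, adjusted p = 0.0351), without control replicates 3 and 4 together (-1.06, 0.0452), with a term for these 2 controls (-1.06, 0.0245) and with all 9 arrays as samples (-0.78, 0.0232). These were 4 of 20 alternatives, and the last counts the near-identical arrays singly. The limma adjusted p was 0.12 without both near-identical arrays and 0.137 without ACDiEKO replicate 4. The ACDiEKO mean of Angpt1 lay below the filter value of 6.165. With 4 samples in each group, no tested neighbour differed by as much as 1 log2 unit.

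**Figure D4:**
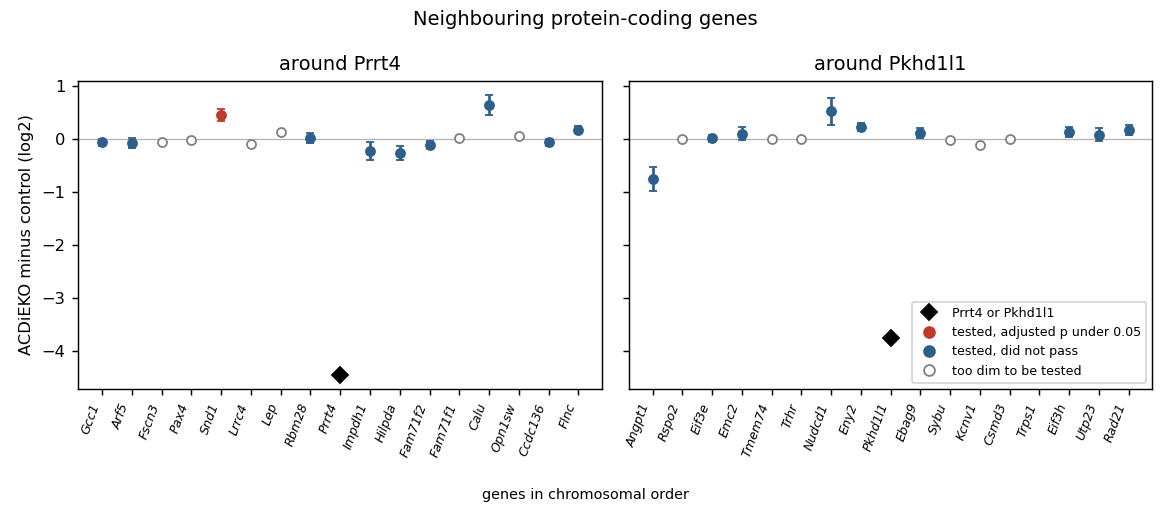
Log2 difference, ACDiEKO minus control (vertical axis), of the 8 protein-coding genes on each side of Prrt4 and Pkhd1l1, in chromosomal order. Bars are the SE of the limma fit, open circles are genes too dim to be tested, and Trps1 has no point because no cluster names it alone. The neighbours lie between -0.75 and 0.64, while Prrt4 is at -4.44 and Pkhd1l1 at -3.75.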

How the data were processed

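Expression was measured in 9 aortas, 1 array each. The deposited table holds the authors' log2 values, made with RMA, per the submitters' processing notes (version not given); the build and annotation are not given in the sources used here. Values reached 19.34, beyond the 16 log2 units of a 16-bit scanner, so an unstated scaling was applied and differences are not given as folds. The number of arrays limits the precision.

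Without array controls, the table has 65956 transcript clusters. Repeated copies of a symbol on a cluster were counted once, and 30604 clusters then had 1 symbol, 2146 several and 33206 none here. Through gene IDs, 827 symbols were updated to the RefSeq table of GRCm38.p6. The brightest cluster stood for a gene. Limma 3.58.1 in R 4.3.3 (lmFit, eBayes, two-sided) was fitted to all 16403 tested genes. In 5 simulated runs with 200 of 16403 genes changed, it recovered 76.8% of changes of 1 log2 unit and 96.6% of 2, with 5.76% false calls. The simulated noise was independent between genes, so these rates leave out variation that genes share across samples.

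Genes were named by a rule: Prrt4, Pkhd1l1, tested relatives, called neighbours, for each of the 2 genes the 8 nearest profiles, 4 mirror profiles and 5 highest r of deviations (gene models, small RNAs, sensory receptors and immune receptor segments left out), and 7 genes fixed by name. Dim relatives, neighbours that did not pass and marker genes were named after their values were seen. The members, lists and tests were chosen with earlier results of these data known. The titles give 2 controls the number 3, and the second is called replicate 4. Alternatives were other filters, quantile normalization, median centring, averaging a gene's clusters, a trended robust variance, all 9 arrays, the title numbers as a block, the run of animal numbers, a smooth muscle covariate and leaving out arrays. Same-numbered arrays did not deviate together (r -0.15 to 0.04).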

Additional observations from a re-analysis of the deposited data

Results flagged for a closer look

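In groups of 4 samples, 90 gene and group combinations of 45 named genes were checked for a sample that stands far from the others, and 3 were found, where chance flags about 1 in 20. Neither Prrt4 nor Pkhd1l1 was among them. For the polycystin gene Pkd1, the averaged ACDiEKO replicates 1 and 2 read 12.74, against 12.17 to 12.27 in the other ACDiEKO samples (gap over range 0.829). For Plxnd1, control replicate 3 read 13.66, against 12.68 to 12.80 in the other controls (0.874). For Mki67, ACDiEKO replicate 5 read 13.12, against 13.88 to 14.00 in the other ACDiEKO samples (0.863).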

How the results depend on the processing

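The differences of Prrt4 and Pkhd1l1 stayed negative under all 18 alternatives each. They moved by more than the spread between replicates under 1 of these, the smooth muscle covariate (-2.69 and -1.05). That covariate did not overlap between the genotypes, so its fits cannot separate it cleanly from genotype. Leaving out each array gave -4.75 to -4.22 for Prrt4 and -4.27 to -3.45 for Pkhd1l1. The count of genes past the threshold was 1692 with a term for the 2 controls of separate animal numbers, 1127 without these 2 controls, 0 with the smooth muscle covariate (limma, 1409 at an unadjusted p under 0.05) and 1680 to 2701 without each array. The title numbers as a replicate block, with all 9 arrays, gave 2351 genes, -4.61 for Prrt4 and -3.93 for Pkhd1l1, and ended the call of Tmie (adjusted p = 0.066) while Cemip2 passed (-1.15, 0.0202). Of the relatives, 1 passed with no filter, with the stricter filter, without both near-identical arrays, with that term and without the 2 controls, 0 with the covariate (2 unadjusted), and 1 to 3 without each array. Of the neighbours, 2 passed with the stricter filter, median centring and quantile normalization, 4 with all 9 arrays, 0 without both near-identical arrays (4 unadjusted) and with the covariate (0 unadjusted), and 0 to 2 without each array. The causes were not tested.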
